A study of Rattus norvegicus with 6 samples.

Results

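Genes that osteoclasts and fused macrophages use to form and to work were followed in rat liver tissue of a hepatocellular carcinoma study. The members are 10 genes of the 32623 annotated in the deposited table. They were taken by their symbols from a list: Tnfrsf11a, Nfatc1, Mitf, Dcstamp, Ocstamp, Tm4sf19, Atp6v0d2, Acp5, Ctsk and Mmp9. RNA sequencing libraries fell into the TAE group, rats that underwent transarterial embolization, a procedure that blocks arteries feeding a liver tumour, and the HCC group, the untreated controls, with 3 libraries each. Both groups are liver tissue of Rattus norvegicus. The labels do not give the strain, age, tumour model, time after embolization, the part of the liver sampled or whether the 3 libraries of a group are 3 animals. A p-value therefore measures the spread among these samples alone, which may be technical. The list was proposed with the difference between TAE and HCC in view. Its values in that contrast are therefore a description, and no test of a member is read as support.

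Osteoclasts are multinucleated cells that resorb bone and arise from the same myeloid precursors as macrophages. The cytokine RANKL binds its receptor RANK on the precursor and, together with M-CSF and costimulation through ITAM adaptors, raises the transcription factor NFATc1. NFATc1, MITF and PU.1 act with AP-1 on the genes for fusion proteins, for the proton pump that acidifies the resorption space, and for the enzymes that digest collagen there. Macrophages that fuse into foreign body giant cells in soft tissue share part of these genes. In liver, several of them are also known in macrophages that are not fused.

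Total counts per library were 14552885, 16578929 and 16604067 for TAE replicates 1 to 3 and 14370846, 13448286 and 14138652 for HCC replicates 1 to 3. The tissue label was borne out by hepatocyte genes: all 8 markers listed were measured, and their summed level was 8006 to 23982 FPKM in TAE and 18950 to 24390 FPKM in HCC. FPKM is the read count scaled to exon length and library total, so levels can be compared between genes. The TAE libraries differed more from each other than the HCC libraries did, with chi-square values, per degree of freedom, of 47.7 to 194 between TAE replicates and 5.50 to 13.2 between HCC replicates.

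Promoters are shown first because MITF, itself a member, is known from work on mouse and human genes to bind the M-box of osteoclast enzyme genes. RefSeq promoters of build GRCr8 matched 5 of the 10 members (Tm4sf19, Acp5, Ctsk, Ocstamp and Mitf), and the 250 bases before each start site were searched on both strands. The M-box letters TCATGTG occurred in Tm4sf19, in Ctsk and in the second of 2 Acp5 promoters, against 3.07% of 33469 promoters of the same length, and not in Ocstamp or Mitf. Capitals mark the match, which in each case reads CACATGA on the gene's strand.
Tm4sf19 (chr11:81889647-81889896, minus strand): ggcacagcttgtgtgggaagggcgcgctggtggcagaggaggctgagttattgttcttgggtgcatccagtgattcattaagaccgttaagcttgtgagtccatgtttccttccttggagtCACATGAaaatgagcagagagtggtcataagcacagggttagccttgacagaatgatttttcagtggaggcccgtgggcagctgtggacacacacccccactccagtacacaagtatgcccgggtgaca
Acp5 (chr8:28943930-28944179, minus strand): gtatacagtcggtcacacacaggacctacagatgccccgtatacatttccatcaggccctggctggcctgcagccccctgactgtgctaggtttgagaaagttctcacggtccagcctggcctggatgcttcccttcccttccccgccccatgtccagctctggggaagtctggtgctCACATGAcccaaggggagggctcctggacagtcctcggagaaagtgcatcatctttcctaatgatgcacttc
Ctsk (chr2:185747298-185747547, plus strand): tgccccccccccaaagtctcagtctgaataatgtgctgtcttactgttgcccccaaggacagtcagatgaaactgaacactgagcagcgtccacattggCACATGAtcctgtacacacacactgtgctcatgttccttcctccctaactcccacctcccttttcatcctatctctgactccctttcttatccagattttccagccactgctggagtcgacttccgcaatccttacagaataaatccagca
The matches lie 129 to 123 bases before the start site of Tm4sf19, 72 to 66 before that of Acp5 and 151 to 145 before that of Ctsk. In the same windows, the AP-1 letters TGANTCA, where N is any base, were found in Tm4sf19 alone of the 5 genes. The match there reads TGATTCA, and 6.34% of all promoters had a match with any middle base. The NFAT core GGAAA was found in Tm4sf19, Acp5, Ctsk and Ocstamp and in 56.9% of all promoters. The PU.1 letters GAGGAAGT (2.04% of all promoters) and the CLEAR letters CACGTGAC (1.63%) were in none of the 5. A match is a description of the letters and not a shown binding site.

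Of the 10 members, 9 had reads and were measured in all 6 libraries, and Dcstamp had none. In 8 of these 9, every TAE library was above every HCC library, as was so for 21.9% of the 14499 genes tested. Fitted log2 changes of TAE over HCC (edgeR, with standard errors) were positive in all 9 and ran from 0.86 to 3.08, with a median of 1.53 beside -0.03 for all genes tested. In edgeR's quasi-likelihood test over all genes, 2 of the 9 passed an adjusted p of 0.05 as higher in TAE, namely Tm4sf19 and Mitf, where 2.70% of all genes did. Other settings gave 7 members with DESeq2, 6 without a low-count filter, and 2 and 3 with limma at a pseudocount of 1 and 0.1. Over all genes, the calls were 1763 of 14499 with DESeq2 and 829 of 21635 without the filter. Limma called 701 and 709 of 14803 genes at those pseudocounts. Since the members were proposed from this contrast, nothing is read from the counts of members called. With 1 library left out, 8 members passed without TAE replicate 2 and 3 without TAE replicate 3. Over all genes, these fits called 3569 of 14743 and 1226 of 14714. Without TAE replicate 1 or any one of the 3 HCC libraries, 0 members passed. Over all genes, 1, 0, 1 and 0 passed without TAE replicate 1 and HCC replicates 1, 2 and 3. In the same order, 7, 8, 7 and 7 members had an unadjusted p under 0.05. Over all genes, 2197 of 14675, 2210 of 14812, 2243 of 14820 and 1997 of 14824 did. In bulk tissue, a change in the number of cells of a type and a change in RNA per cell cannot be told apart.

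**Figure D1:**
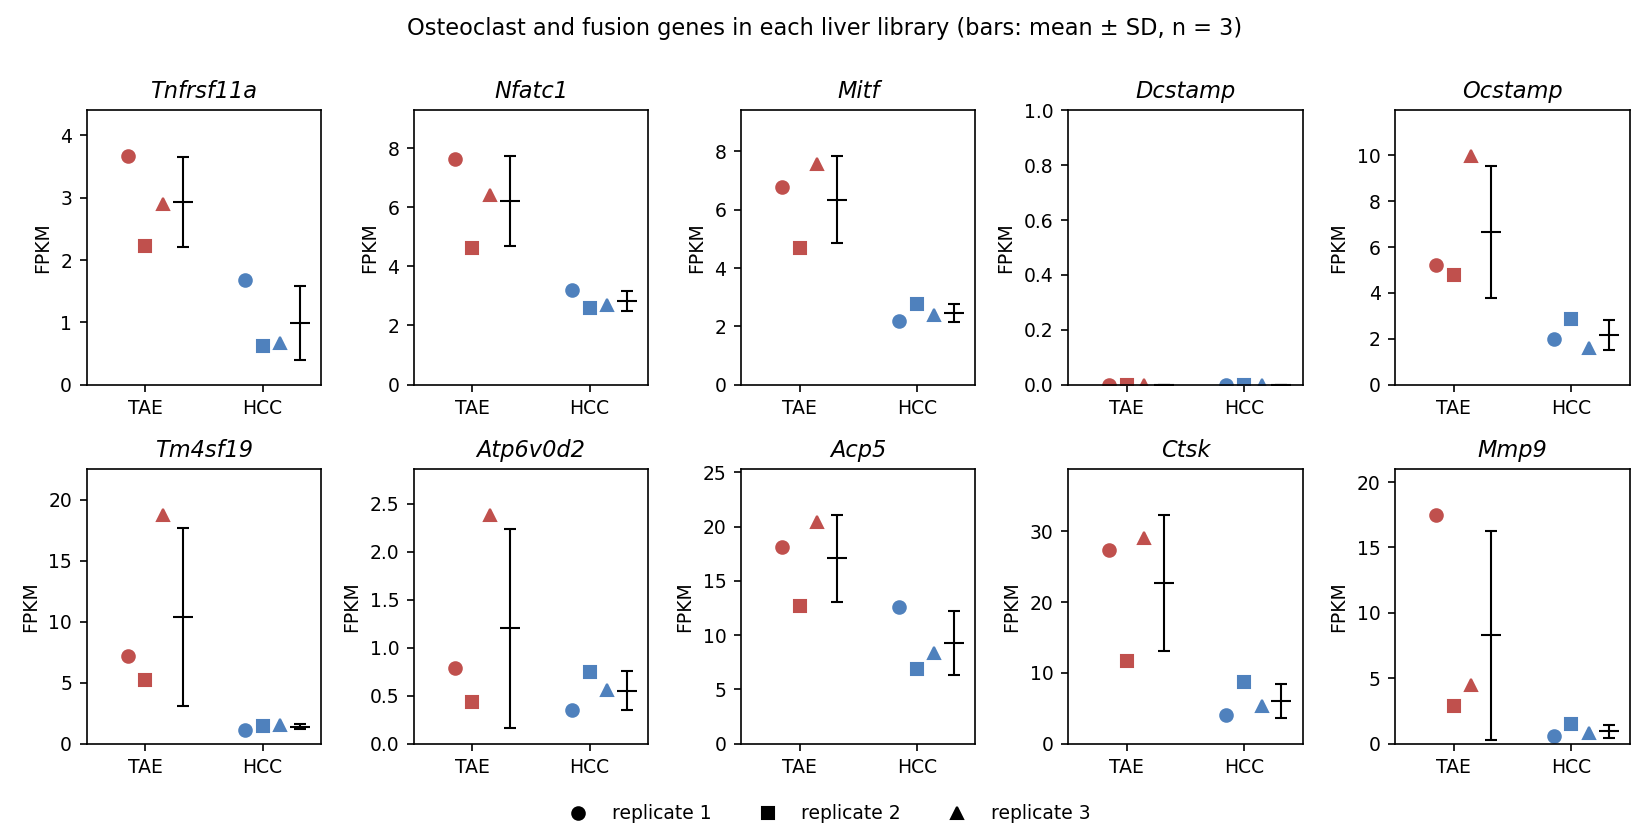
FPKM (y axis) of the 10 members in each TAE and HCC liver library (x axis), with symbols for replicates and bars for the mean ± SD of 3 libraries. In 8 panels all TAE libraries are above all HCC libraries, in Atp6v0d2 the groups overlap, and Dcstamp is at 0 throughout.

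Among the receptor and the transcription factors, all 3 were higher in every TAE library. Tnfrsf11a, which encodes RANK (chromosome 13, 25778317 to 25835957 in the table), had 3.67, 2.23 and 2.90 FPKM in TAE replicates 1 to 3, against 1.68, 0.62 and 0.67 FPKM in HCC replicates 1 to 3. HCC replicate 1 stood above the other HCC libraries and came closest to TAE replicate 2. The log2 change was 1.53 ± 0.44 (SE), and it was 2.13 without HCC replicate 1.

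Nfatc1, the transcription factor that RANK signalling raises (chromosome 18, 77203525 to 77322690), had 7.63, 4.61 and 6.40 FPKM in TAE, against 3.21, 2.60 and 2.68 FPKM in HCC. The HCC libraries lay close together and TAE replicate 2 was nearest to them. Its log2 change was 1.10 ± 0.25. Mitf, a basic helix-loop-helix factor of osteoclasts, mast cells and melanocytes (chromosome 4, 130172727 to 130425532), had 6.79, 4.67 and 7.57 FPKM in TAE, against 2.18, 2.77 and 2.40 FPKM in HCC. The lowest TAE library was 1.69 times the highest HCC library, and the log2 change was 1.35 ± 0.27.

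Of the 3 genes for fusion proteins, Ocstamp and Tm4sf19 were higher in TAE and Dcstamp was not detected. Tm4sf19, a membrane protein of the L6 family known from multinucleating osteoclasts (chromosome 11, 71606239 to 71619167), had 7.16, 5.22 and 18.7 FPKM in TAE, against 1.14, 1.47 and 1.52 FPKM in HCC. The separation was the widest of the 9 members, since even the lowest TAE library was 3.43 times the highest HCC library. TAE replicate 3 was far above the other TAE libraries: the log2 change of 2.94 ± 0.59 was 2.05 without it.

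Ocstamp, a multipass membrane protein that osteoclast precursors of mice need for fusion (chromosome 3, 162075340 to 162080192), had 5.21, 4.78 and 9.97 FPKM in TAE, against 1.97, 2.87 and 1.61 FPKM in HCC. TAE replicates 1 and 2 were nearly level and replicate 3 was higher. The log2 change was 1.63 ± 0.43. Dcstamp, the related protein that fusion of mouse osteoclasts and giant cells requires (chromosome 7, 78649875 to 78650906), had 0 reads in all 6 libraries. A count of 0 allows up to 0.175 to 0.2 FPKM in the TAE libraries and 0.202 to 0.216 FPKM in the HCC libraries (a limit of 3 counts each, covering counting error only). The table annotates this gene as a single block of 1032 exonic bases. Reads outside that block could not have been counted for it, so the 0 holds for that gene model alone.

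Of the pump subunit and the enzymes, Ctsk, Acp5 and Mmp9 were higher in all TAE libraries and Atp6v0d2 was not. Atp6v0d2, the d2 subunit of the vacuolar proton pump that mouse osteoclasts use for acid secretion and fusion (chromosome 5, 33843519 to 33892462), had 0.79, 0.43 and 2.38 FPKM in TAE, against 0.35, 0.75 and 0.56 FPKM in HCC. TAE replicate 3 stood well above the HCC libraries, TAE replicate 1 just above the highest of them, and TAE replicate 2 within their range. These values rest on 16, 10 and 55 reads in TAE and 7, 14 and 11 reads in HCC. The 95% Poisson interval of TAE replicate 3, 1.79 to 3.09 FPKM, lies above that of every other library, of which the highest bound is 1.28 FPKM. The log2 change was 1.15 ± 0.74 and was 0.03 without TAE replicate 3.

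Acp5, tartrate-resistant acid phosphatase and the classic stain for osteoclasts (chromosome 8, 23142734 to 23148396), had 18.1, 12.7 and 20.5 FPKM in TAE, against 12.6, 6.86 and 8.40 FPKM in HCC. The groups barely separated: TAE replicate 2 was 1.01 times HCC replicate 1. Its log2 change of 0.86 ± 0.32 was the smallest of the 9. Ctsk, the lysosomal protease cathepsin K that cleaves collagen (chromosome 2, 196655469 to 196666446), had 27.4, 11.7 and 29.1 FPKM in TAE, against 4.08, 8.66 and 5.39 FPKM in HCC. By group mean, Ctsk was the most abundant member in TAE and Acp5 the most abundant in HCC. The means were 22.7 ± 9.58 FPKM for Ctsk and 17.1 ± 4 FPKM for Acp5 in TAE. In HCC they were 6.04 ± 2.36 and 9.28 ± 2.96 FPKM for the same genes (SD, n = 3 each), and the spreads overlap in both groups. The order was reversed in TAE replicate 2, where Acp5 was above Ctsk, and in HCC replicate 2, where Ctsk was above Acp5. The log2 change of Ctsk was 1.90 ± 0.46.

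Mmp9, the secreted gelatinase of osteoclasts, macrophages and neutrophils (chromosome 3, 161413298 to 161421520), had 17.5, 2.85 and 4.51 FPKM in TAE, against 0.55, 1.49 and 0.79 FPKM in HCC. TAE replicate 1 alone accounted for most of the TAE mean, at 801 reads beside 149 and 236. The log2 change was 3.08 ± 0.75, the largest of the 9, and 1.98 without TAE replicate 1. Coordinates are those of the deposited table. The submitters' processing notes give mRatBN7.2, but the table has a gene end at 282724300 on chromosome 1, past the end of that chromosome there, which leaves the build of the coordinates unsettled.

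Within TAE, the members were not all highest in the same library. TAE replicate 2 was the lowest TAE library for all 9 detected members. TAE replicate 3 was the highest for 6, Tm4sf19, Ocstamp, Atp6v0d2, Acp5, Ctsk and Mitf, and TAE replicate 1 for 3, Tnfrsf11a, Nfatc1 and Mmp9. The ratio of the highest to the lowest TAE library ran from 1.62 for Acp5 to 6.13 for Mmp9, and between HCC libraries from 1.23 for Nfatc1 to 2.71 for Tnfrsf11a and Mmp9.

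**Figure D2:**
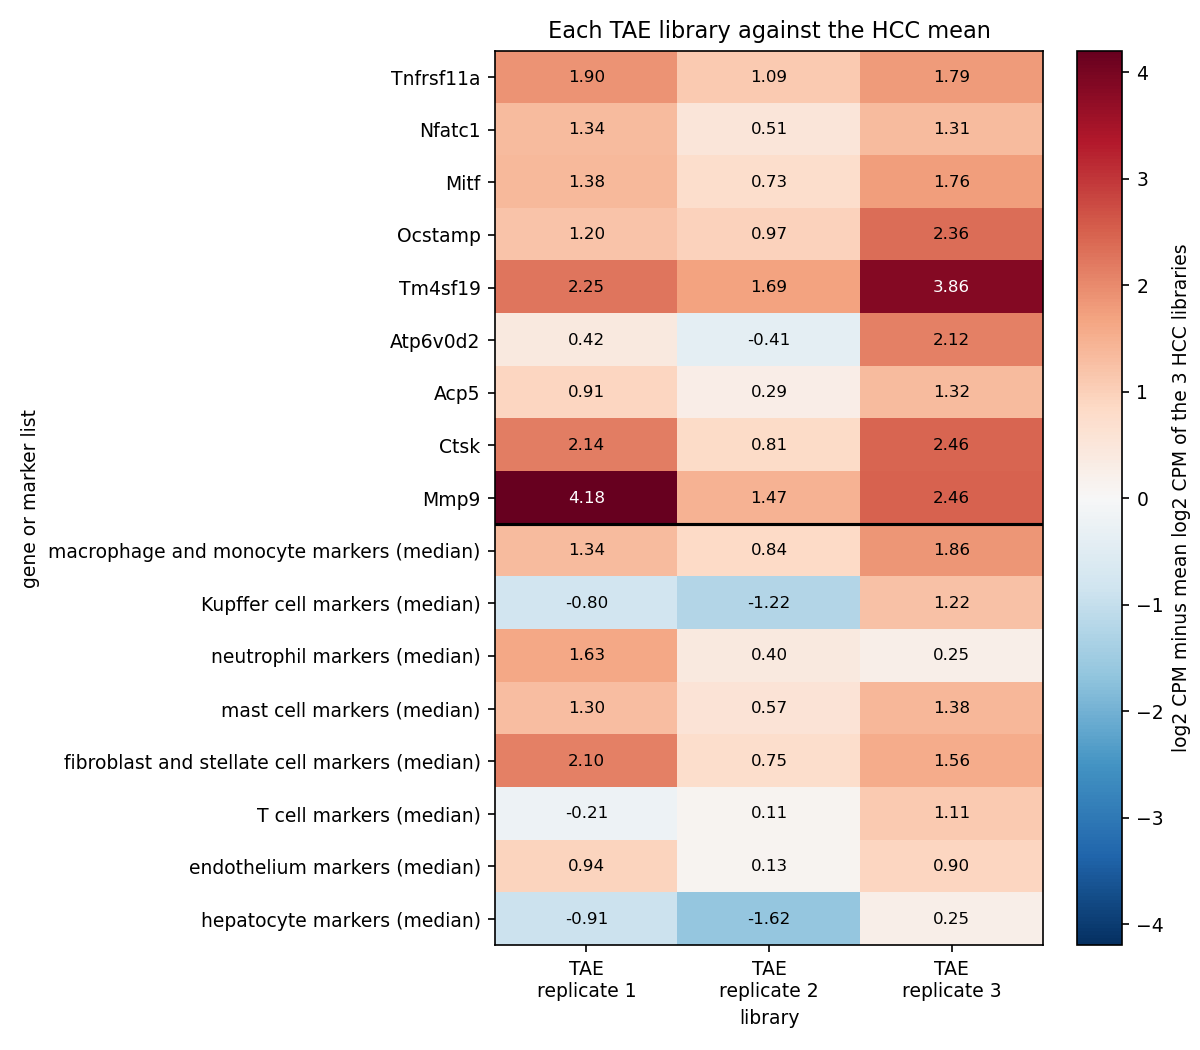
Log2 CPM (read counts scaled to a common library size) of each TAE library (columns) minus the mean of the 3 HCC libraries for the 9 detected members and, below the line, the median of each list of cell type markers (rows). TAE replicate 2 is the lowest of the 3 for every member, and Mmp9 in TAE replicate 1 and Tm4sf19 in TAE replicate 3 have the largest values, 4.18 and 3.86.

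Markers of other cell types that express single members moved as well, and their part in these results was not tested. Of 12 macrophage and monocyte markers, 11 were measured, and their summed level was 3519 to 4500 FPKM in TAE and 1079 to 1401 FPKM in HCC. Most of this sum was Lyz2, at 2790 to 3534 FPKM in TAE and 675 to 923 FPKM in HCC. In 10 of the 11, every TAE library was above every HCC library, beside 21.9% of all genes tested. Cd163 overlapped, at 98.5 ± 30.3 FPKM in TAE and 105 ± 19.7 FPKM in HCC. Of 9 fibroblast and stellate cell markers, cells in which Ctsk is also known, the sum was 1315 to 3394 FPKM in TAE and 507 to 825 FPKM in HCC. Of 11 neutrophil markers, cells that store MMP9, the sum was 62.7 to 147 FPKM in TAE and 29.8 to 61.3 FPKM in HCC. S100a8 and S100a9 made up most of the neutrophil sum and were highest in TAE replicate 3. Among genes too low to test, Mpo and Ngp were highest in TAE replicate 3, and Elane, Camp and Fpr1 in TAE replicate 1. The receptors tested in the same list were highest in TAE replicate 1. Il1r2 had 12.7, 3.27 and 2.18 FPKM, Csf3r 22.2, 19.6 and 13.6 FPKM and Cxcr2 2.40, 1.97 and 1.00 FPKM in TAE replicates 1 to 3. In HCC replicates 1 to 3, the values were 1.11, 2.43 and 2.90 FPKM for Il1r2, 10.8, 14.2 and 13.8 FPKM for Csf3r and 1.53, 1.69 and 2.20 FPKM for Cxcr2, and the groups overlapped for each.

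Mast cells use MITF, and 7 of 8 mast cell markers were measured, with a sum of 26.9 to 53.9 FPKM in TAE and 12.1 to 17.6 FPKM in HCC. Most of the TAE sum was Cpa3, at 15.8, 16.2 and 40.8 FPKM in TAE, against 3.82, 6.13 and 4.37 FPKM in HCC. Of 5 mast cell markers tested, 4 had a positive log2 change. Hdc went the other way, at 4.14 ± 1.40 FPKM in TAE and 6.73 ± 1.58 FPKM in HCC, with overlapping groups. Tpsb2 and Tpsab1 were too low to test. Melanocyte markers, another MITF lineage, were near 0: Tyr and Mlana had no read in any library, and the sum of the 5 measured was 1.11 to 3.01 FPKM in TAE and 2.02 to 2.94 FPKM in HCC, nearly all of it Pmel. T cells, which express Nfatc1, had a marker sum of 267 to 422 FPKM in TAE and 133 to 195 FPKM in HCC over 8 markers. Only Cd8a and Cd4 of these had all TAE libraries above all HCC libraries, and the other 6, the CD3 genes among them, overlapped: Cd3e had 8.66, 12.96 and 18.2 FPKM in TAE and 9.24, 15.1 and 12.3 FPKM in HCC. The 7 endothelial markers summed to 79.9 to 127 FPKM in TAE and 59.8 to 64.1 FPKM in HCC. In 5 of them every TAE library was above every HCC library, beside 21.9% of all genes tested. The 5 of 6 resident Kupffer cell markers measured summed to 169 to 506 FPKM in TAE and 216 to 287 FPKM in HCC. In 4 of them, Clec4f, Vsig4, Marco and Cd5l, the groups overlapped. Folr2, a folate receptor of resident macrophages, had 107, 79.5 and 173 FPKM in TAE, against 29.2, 45.6 and 34.5 FPKM in HCC, without passing (edgeR adjusted p = 0.0554). Bone was not apparent in the tissue: 9 osteoblast and bone matrix markers summed to 11.8 to 14.5 FPKM in TAE and 12.1 to 12.9 FPKM in HCC, and Bglap, which encodes osteocalcin, had 0, 0 and 1 read in TAE and 1, 3 and 5 reads in HCC.

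Set against the macrophage marker Cd68 in the same library, most members overlapped between groups. This ratio was chosen after the data had been seen. Cd68, a lysosomal glycoprotein of macrophages, itself averaged 254 ± 86.6 FPKM in TAE and 77.8 ± 5.51 FPKM in HCC (SD, n = 3 each). Per 1000 FPKM of Cd68, 1 of the 9 detected members had all TAE libraries above all HCC libraries, 1 had them below, and 7 overlapped. The share of all genes that separate on this scale was not computed, so these counts are not read as a trait of the members. Tm4sf19 was the one above, with 31.4, 28.5 and 53.4 in TAE and 14.9, 17.5 and 20.8 in HCC. Acp5 was the one below, with 79.4, 69.0 and 58.3 in TAE and 164, 81.9 and 115 in HCC.

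Ocstamp lay at 22.9, 26.1 and 28.4 per 1000 FPKM of Cd68 in TAE and 25.7, 34.3 and 22.1 in HCC, so the groups covered the same range. Mitf, at 29.8, 25.5 and 21.6 in TAE and 28.5, 33.1 and 32.9 in HCC, and Nfatc1, at 33.5, 25.1 and 18.3 in TAE and 41.9, 31.0 and 36.7 in HCC, overlapped at a lower TAE mean. With Csf1r, the receptor for M-CSF, as the marker, Tm4sf19 was again above in all TAE libraries (56.7, 60.9 and 153 in TAE and 20.8, 30.2 and 36.2 in HCC), Mmp9 also was, Acp5 overlapped, and 7 members overlapped in all. The direction of the means depended on the marker. Per 1000 FPKM of Csf1r, Mitf averaged 56.6 ± 4.40 in TAE and 51.3 ± 9.93 in HCC, and Ocstamp 59.4 ± 20.3 and 44.4 ± 12.7. Nfatc1 stayed lower in TAE, at 55.4 ± 4.36 against 58.6 ± 5.15 in HCC (SD, n = 3 each). The share of all genes that separate on the Csf1r scale was not computed either. These ratios carry no test, because the members were chosen from the same contrast.

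**Figure D3:**
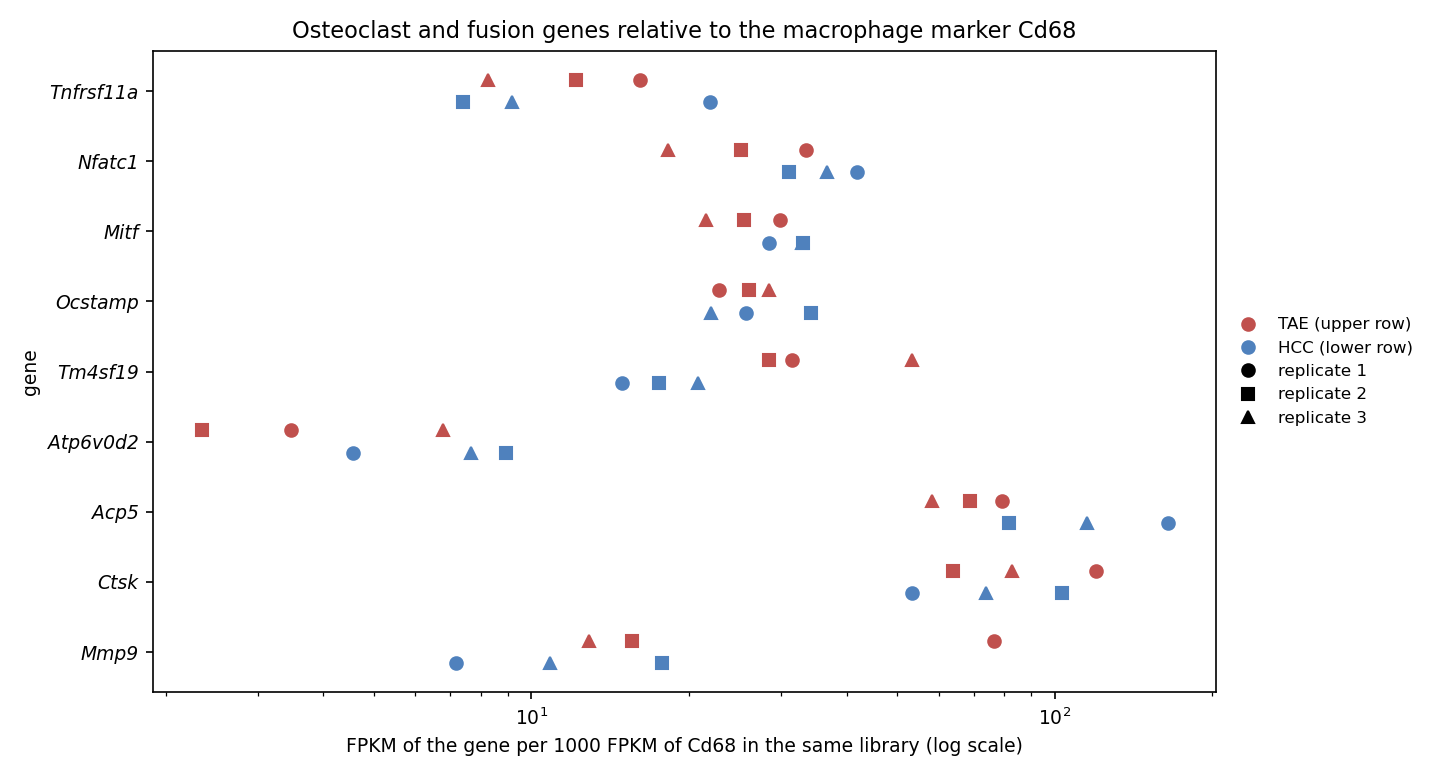
FPKM of each detected member per 1000 FPKM of Cd68 in the same library (x axis, log scale), with TAE libraries in the upper and HCC libraries in the lower row of each gene (y axis). The TAE points of Tm4sf19 lie right of all its HCC points, those of Acp5 lie left, and the groups overlap for the other 7.

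The other genes of the pathway were tested over all genes. They came from 7 lists with 146 entries, of which 141 matched a gene of the table and 133 were tested, and they exclude the members. Some of them, such as Trem2, Csf1r and Gpnmb, were already known to be higher in these data when the lists were written. Of these, 20 rose after TAE, none fell and 113 did not pass (15.0% called, beside 3.01% of all genes in either direction), with a median log2 change of 0.41. The 437 calls over all genes changed with the library left out. They became 1, 3569 and 1226 without TAE replicates 1, 2 and 3, and 0, 1 and 0 without HCC replicates 1, 2 and 3. Across those 6 fits, in the same order, an unadjusted p below 0.05 was reached by 2197, 5878, 3749, 2210, 2243 and 1997 genes, while DESeq2 calls numbered 769, 4234, 2118, 890, 1034 and 713. In the paragraphs that follow, no listed gene passed edgeR without TAE replicate 1 or without any one HCC library.

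**Figure D4:**
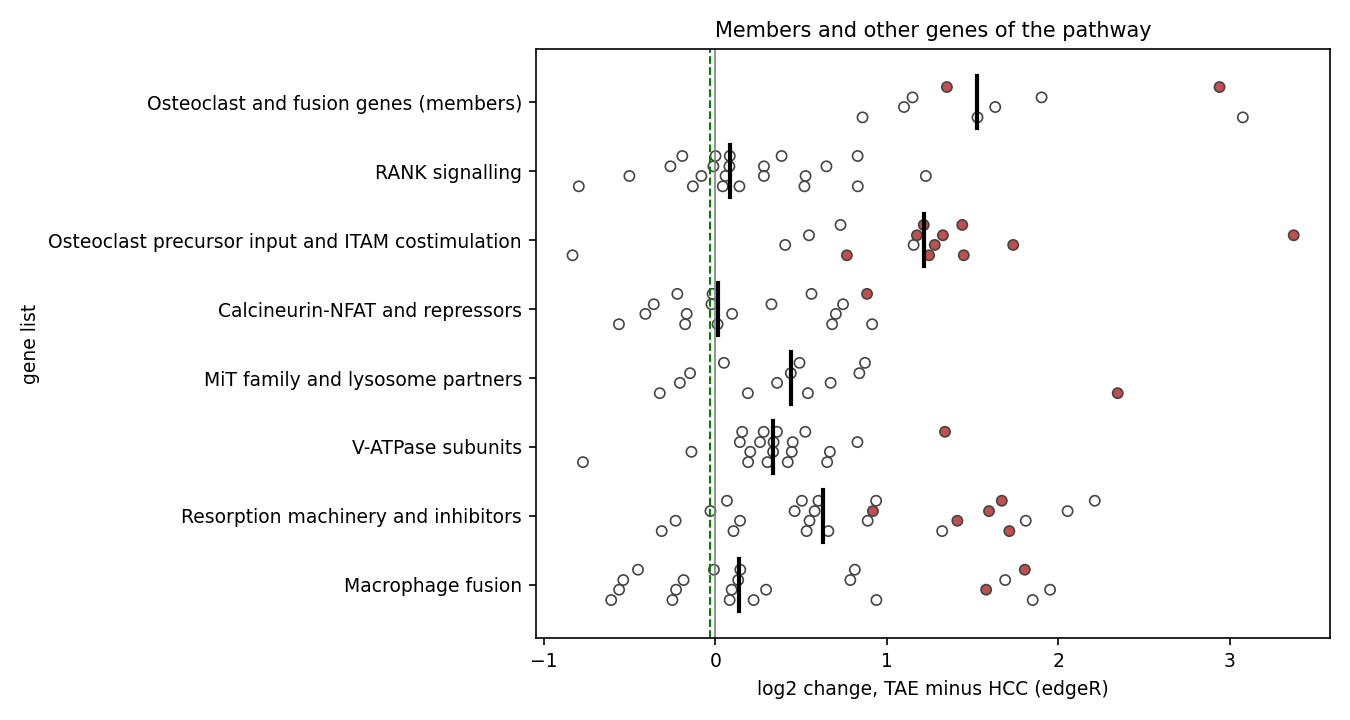
Fitted log2 change of TAE over HCC (x axis, edgeR) of each tested member and each tested gene of the 7 pathway lists (y axis). Filled points passed an adjusted p of 0.05, black bars are list medians, and the dashed line is the median of all genes, -0.03; the costimulation list holds 10 of the 20 filled points outside the members.

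The costimulation and precursor genes held the most calls. Of 15 tested, 10 rose, none fell and 5 did not pass, with a median log2 change of 1.22. Without TAE replicates 2 and 3 these became 13 and 11. DESeq2 called 9, 10, 11 and 10 where edgeR called 0, without TAE replicate 1 and HCC replicates 1, 2 and 3. With all 6 libraries, DESeq2 called 13 of the 15, all higher in TAE, beside 1763 of all 14499 genes. The ITAM adaptors that costimulate osteoclast precursors both rose: Tyrobp, which encodes DAP12, to 211 ± 34.8 FPKM in TAE, against 85.4 ± 6.28 FPKM in HCC, a log2 change of 1.28 ± 0.21 (edgeR adjusted p = 0.0394), and Fcer1g to 495 ± 118 FPKM, against 179 ± 7.25 FPKM in HCC, with a log2 change of 1.45 ± 0.25 (edgeR adjusted p = 0.0406). Trem2, the DAP12-coupled lipid receptor, had the largest change of the list, 3.37 ± 0.59.

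Of the signal transducers downstream of these adaptors, 4 rose and 2, Tec and Vav3, did not pass. Syk, the kinase that docks on ITAMs, had a log2 change of 1.44 ± 0.23, its adaptor Blnk 1.74 ± 0.25, the kinase Btk 1.33 ± 0.19 and the phospholipase Plcg2 1.25 ± 0.17 (edgeR adjusted p = 0.0388 for each). The kinase Tec had 0.41 ± 0.20 and the exchange factor Vav3 0.55 ± 0.13 (edgeR adjusted p = 0.268 and 0.0693). Spi1, which encodes PU.1, rose to 46.1 ± 4.41 FPKM in TAE, against 19.4 ± 1.58 FPKM in HCC, with a log2 change of 1.22 ± 0.18. Csf1 and its receptor Csf1r both passed narrowly, with log2 changes of 0.77 ± 0.15 and 1.18 ± 0.23 (edgeR adjusted p = 0.0495 and 0.0487). Il34, the other Csf1r ligand, averaged 4.36 ± 1.02 FPKM in TAE and 1.90 ± 0.502 FPKM in HCC without passing (edgeR adjusted p = 0.0998).

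The costimulatory receptors most particular to osteoclasts did not pass edgeR. Oscar, a collagen receptor, averaged 9.18 ± 1.21 FPKM in TAE and 5.35 ± 0.616 FPKM in HCC (log2 change 0.73 ± 0.19, edgeR adjusted p = 0.0824). Every TAE library of Oscar was above every HCC library, as was so for 21.9% of all genes tested. Siglec15, a sialic acid receptor needed for mature mouse osteoclasts, averaged 0.637 ± 0.441 FPKM in TAE and 1.06 ± 0.431 FPKM in HCC, a negative log2 change of -0.83 ± 0.58.

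The RANK signalling genes themselves did not pass. Of 22 tested, 0 passed edgeR and DESeq2 called 3, while 7 reached an unadjusted p below 0.05, with a median log2 change of 0.08. Without TAE replicates 2 and 3, edgeR called 6 and 1 of them. Tnfsf11, which encodes RANKL, had no read in any of the 6 libraries. Tnfrsf11b, the decoy receptor osteoprotegerin that blocks RANKL, was measured at 20.3, 8.82 and 12.7 FPKM in TAE and 6.81, 8.74 and 7.32 FPKM in HCC. Its groups did not overlap, although TAE replicate 2 lay just above HCC replicate 2, and its log2 change of 0.83 ± 0.31 did not pass (edgeR adjusted p = 0.181). Fos, an AP-1 subunit that osteoclasts of mice require, was 5.54 ± 0.822 FPKM in TAE and 2.30 ± 0.369 FPKM in HCC and missed the threshold (edgeR adjusted p = 0.0547), and Traf6, the RANK adaptor, had a log2 change of -0.19 ± 0.24.

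Of 17 calcineurin, NFAT and repressor genes tested, Irf8 alone rose, none fell and 16 did not pass (median log2 change 0.01), and without TAE replicates 2 and 3 the calls became 7 and 2. Irf8, a factor that restrains Nfatc1 in mouse precursors, rose to 75.4 ± 3.15 FPKM in TAE, against 39.6 ± 3.21 FPKM in HCC, with a log2 change of 0.88 ± 0.14 (edgeR adjusted p = 0.0388). Bcl6, another repressor, averaged 10.7 ± 0.866 FPKM in TAE and 15.3 ± 1.25 FPKM in HCC, with all TAE libraries below all HCC libraries but no call (edgeR adjusted p = 0.0998). Nfatc3 overlaps another gene of the table, as do Timp1, Il34, Itgb3, Calcr, Vav3, Atp6v0a1, Atp6v0d1 and the markers Pmel, Tyr and Cd5l, and their reads may be shared. Of the other NFAT genes, Nfatc4 had a log2 change of 0.91 ± 0.29, and Nfatc2 and Nfatc3 had -0.18 ± 0.27 and -0.02 ± 0.14, none of which passed.

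Of 13 genes of the MITF family and its lysosomal partners, Gpnmb alone rose and 12 did not pass (median log2 change 0.44), with 8 and 2 calls without TAE replicates 2 and 3. Gpnmb, a glycoprotein known as an MITF target, rose to 882 ± 277 FPKM in TAE, against 173 ± 26.1 FPKM in HCC. Among the relatives of Mitf, Tfec, the one most restricted to myeloid cells, averaged 26.1 ± 2.19 FPKM in TAE and 14.2 ± 2.16 FPKM in HCC (edgeR adjusted p = 0.0550), Tfeb had a log2 change of 0.67 ± 0.20 and Tfe3 one of 0.05 ± 0.14.

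Among 20 proton pump genes tested, Tcirg1 alone rose, none fell and 19 did not pass (median log2 change 0.34), with 9 and 3 calls without TAE replicates 2 and 3. Tcirg1, the a3 subunit that places the pump in the osteoclast membrane, rose to 62.9 ± 16.4 FPKM in TAE, against 24.6 ± 1.56 FPKM in HCC, with a log2 change of 1.34 ± 0.27 (edgeR adjusted p = 0.0487). The widely expressed a1 subunit Atp6v0a1 had a log2 change of 0.16 ± 0.12. In 14 of the 20, including Atp6v0d1, every TAE library was above every HCC library, as was so for 21.9% of all genes tested.

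Of 24 genes of resorption and its inhibitors tested, 5 rose, none fell and 19 did not pass (median log2 change 0.63), with 17 and 12 calls without TAE replicates 2 and 3. Car2, the carbonic anhydrase that supplies protons to the pump, rose to 30.1 ± 7.88 FPKM in TAE, against 9.82 ± 1.74 FPKM in HCC, with a log2 change of 1.60 ± 0.29 (edgeR adjusted p = 0.0424). Mmp12, the elastase of macrophages, had a log2 change of 1.71 ± 0.23, the cathepsins Ctss and Ctsd had 1.67 ± 0.33 and 1.41 ± 0.25, and Snx10, a sorting nexin required by osteoclasts, had 0.92 ± 0.14. Clcn7 and Ostm1, the chloride exchanger of the resorption space and its partner, had 0.55 ± 0.12 and 0.53 ± 0.20 and did not pass.

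Further genes of the mature osteoclast were near 0 or did not pass. Calcr, the calcitonin receptor, had 0, 0 and 3 reads in TAE and 1, 0 and 0 reads in HCC. Itgb3, the integrin chain of the osteoclast sealing zone, averaged 7.92 ± 2.86 FPKM in TAE and 5.13 ± 0.73 FPKM in HCC with overlapping groups (edgeR adjusted p = 0.261). Of the inhibitors, Cst3, which encodes the cathepsin inhibitor cystatin C, averaged 249 ± 66.4 FPKM in TAE and 133 ± 8.19 FPKM in HCC without passing, and Timp1, an inhibitor of MMP9, averaged 166 ± 43.7 FPKM in TAE and 151 ± 26.4 FPKM in HCC with overlapping groups. Mmp8, the collagenase stored by neutrophils, had 1.23 ± 0.825 FPKM in TAE and 0.353 ± 0.0451 FPKM in HCC. It was highest in TAE replicate 3, with 1.24, 0.40 and 2.05 FPKM in TAE replicates 1 to 3. The name osteoclast-like is used here for the list of genes and for no cell, and whether osteoclasts were present was not tested.

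Of 22 further fusion genes tested, 2 rose, none fell and 20 did not pass (median log2 change 0.14), with 9 and 6 calls without TAE replicates 2 and 3. Adam8, a protease that promotes fusion of osteoclast precursors in mice, rose to 7.94 ± 0.501 FPKM in TAE, against 2.58 ± 0.539 FPKM in HCC, with a log2 change of 1.58 ± 0.22 (edgeR adjusted p = 0.0388). Cd200r1, the inhibitory receptor for CD200, rose to 21.6 ± 6.69 FPKM, against 6.11 ± 0.833 FPKM in HCC, with a log2 change of 1.80 ± 0.31. Il4 and Il13, the cytokines that induce giant cells in culture, had at most 8 reads in any library and were not tested.

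The tetraspanins Cd9 and Cd81, which restrain macrophage fusion in mice, had log2 changes of -0.56 ± 0.27 and 0.22 ± 0.26 without a call. The relatives of Tm4sf19 had negative values: Tm4sf1 averaged 29.0 ± 11.7 FPKM in TAE and 39.5 ± 1.41 FPKM in HCC, and Tm4sf4, a liver member of the family, 44.1 ± 15.0 FPKM in TAE and 66.8 ± 2.15 FPKM in HCC, with log2 changes of -0.54 ± 0.23 and -0.61 ± 0.31 that did not pass. Tm4sf5 had at most 2 reads in any library.

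Members were also set against their paralogs in the same library, as a description with no test. Nfatc1 was 42.1%, 28.2% and 51.9% of the summed FPKM of Nfatc2, Nfatc3 and Nfatc4 in TAE and 21.4%, 19.2% and 19.9% in HCC. Mitf was 13.1%, 9.61% and 15.0% of the sum of Tfeb, Tfe3 and Tfec in TAE and 6.35%, 8.28% and 7.66% in HCC. For both, all TAE libraries were above all HCC libraries.

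Ctsk was 1.51%, 0.831% and 1.10% of the sum of the cathepsins Ctsb, Ctsl and Ctss in TAE and 0.497%, 0.875% and 0.617% in HCC, with overlap at TAE replicate 2. Atp6v0d2 was 1.42%, 0.849% and 3.90% of its widely expressed paralog Atp6v0d1 in TAE and 0.894%, 1.64% and 1.26% in HCC. The d1 gene thus stood far above d2 in every library, at 55.7 ± 5.15 FPKM in TAE and 43.0 ± 3.45 FPKM in HCC.

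**Figure D5:**
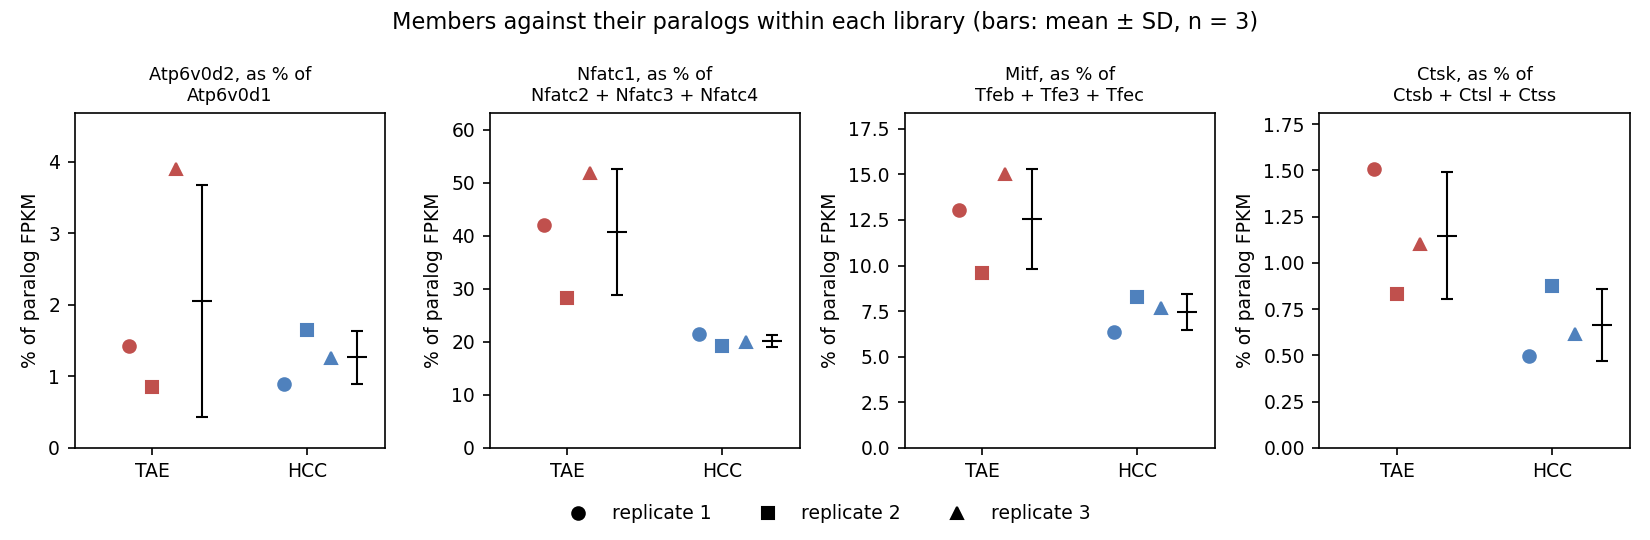
FPKM of 4 members as a percentage of the FPKM of their paralogs in the same library (y axis) for TAE and HCC (x axis), with symbols for replicates and bars for the mean ± SD of 3 libraries. The groups separate for Nfatc1 and Mitf and overlap for Atp6v0d2 and Ctsk.

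Across the 6 libraries, the mean standardized log2 CPM of the 9 tested members was 0.86, -0.02 and 1.34 in TAE replicates 1 to 3 and -0.73, -0.64 and -0.82 in HCC replicates 1 to 3. Each member was compared with the mean of the other 8, as a description over 6 libraries that share these group labels. Pearson's r was highest for Mitf (0.987), Tm4sf19 (0.963) and Nfatc1 (0.961) and lowest for Atp6v0d2 (0.686). The genes tested were also ranked by likeness to the mean of the members, leaving out members and locus or clone names. The 10 most alike were Sumf1, Prcp, Npr1, Rps12, Mmp24, Stap1, Hlx, Emd, Rassf5 and Rin3, with r from 0.998 to 0.999. Stap1, an adaptor protein of myeloid and B cells, had the largest log2 change of these, 1.96, with 7.76, 4.45 and 10.9 FPKM in TAE and 1.99, 2.18 and 1.76 FPKM in HCC. Prcp, a lysosomal carboxypeptidase, had 42.6, 28.7 and 45.7 FPKM in TAE and 16.8, 18.5 and 16.3 FPKM in HCC.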

How the data were processed

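Liver RNA of 3 TAE and 3 HCC libraries was sequenced as paired ends after poly(A) selection, with strand-specific libraries per the labels' protocols. In 1 table the authors deposited unnormalized counts of reads and FPKM values for each gene in each library, per the file headers. Recomputing FPKM from the deposited counts, exonic kilobases and library totals matched 100% of values within 0.006. The genome build is mRatBN7.2 per the submitters' processing notes. Aligner, counter, counting by strand and handling of shared reads: not given in the sources used here. No other gene of the table overlaps a member. Exonic length, another column of the deposited table, entered the FPKM limits.

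Groups came from the titles. Members and lists were chosen with earlier results of these data known. Where a symbol was repeated, the row with the highest mean count was used. The test was edgeR 4.0.16 (R 4.3.3; quasi-likelihood, TMM, filterByExpr, no block, two-sided) on counts, at an adjusted p (Benjamini-Hochberg, 14499 genes) of 0.05. Standard errors are the absolute log2 change divided by the square root of F. Log2 CPM used a prior count of 2. Named genes were the members, partner genes and paralogs set down in a list, up to 8 called genes of each pathway list, and the 10 genes most like the members by Pearson's r. Locus and clone names were left out of those 10. The ratio to Cd68 or Csf1r, and the naming of single marker genes and of Tec and Vav3, were chosen after values were seen. Of the list entries, 9 had no matching symbol. The scripts were tested on simulated counts. Alternatives were median-of-ratios factors, no low-count filter (any gene with a read), DESeq2 1.42.0, limma 3.58.1 on log2(FPKM + 1) and log2(FPKM + 0.1) (genes averaging 0.5 FPKM or more), a replicate block, and leaving out each library. Promoter sequences are RefSeq's, build GRCr8. Total counts of 13448286 to 16604067 per library make counting error small except for genes of few reads.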

Additional observations from a re-analysis of the deposited data

How the results depend on the processing

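Over all genes, the 437 calls became 829 without a low-count filter, 1763 with DESeq2, 701 and 709 with limma on log2(FPKM + 1) and log2(FPKM + 0.1), and 0 to 3569 when 1 library was left out. For the lists in the order RANK signalling, costimulation, NFAT regulators, MITF family, proton pump, resorption and fusion, with 0, 10, 1, 1, 1, 5 and 2 calls, the ranges with 1 library left out were 0 to 6, 0 to 13, 0 to 7, 0 to 8, 0 to 9, 0 to 17 and 0 to 9. Without a filter, RANK signalling had 1 call, the MITF family 2, the proton pump 2, resorption 9 and fusion 5. With DESeq2, these became 3 for RANK signalling, 13 for costimulation, 4 for NFAT regulators and 4 for the MITF family. The same setting gave 6 for the proton pump, 12 for resorption and 8 for fusion. Limma, with either pseudocount, called 1 RANK signalling gene, 2 NFAT regulators, 2 of the MITF family, 3 pump genes, 9 of resorption and 5 of fusion. Median-of-ratios factors left the call count of each list within 1.5 times. The cause of these differences was not tested.

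Replicate numbers are shared by both groups, but the labels do not say that they pair samples. With the replicate block edgeR called 0 genes of all tested (2984 at an unadjusted p under 0.05) and 0 in each list, where 0 members passed as well. Deviations from the group means of same-numbered libraries correlated at 0.10, -0.21 and 0.034 for numbers 1, 2 and 3, and not every library correlated best with its own number.

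The members' log2 changes kept their sign in all 108 combinations of 9 members and 12 alternatives and moved by more than the spread between replicates in 5. They were lowest for Atp6v0d2 without TAE replicate 3, at 0.026. With limma on log2(FPKM + 1), whose pseudocount shrinks low genes, Mmp9 was at 1.94, Tm4sf19 at 2.08 and Atp6v0d2 at 0.41. The ratio of Atp6v0d2 to Atp6v0d1 turned to a log2 value of -0.16 without TAE replicate 3, against 0.70 with it. Named pathway genes that turned in sign were all small and uncalled: Nfatc3 was at 0.024 with limma at either pseudocount, and with 1 library left out the log2 changes ran from -0.33 to 0.042 for Traf6, from -0.12 to 0.091 for Nfatc3, from -0.10 to 0.21 for Timp1 and from -0.086 to 0.45 for Cd81. Relative to Cd68, the mean of Tm4sf19 was higher in TAE by a log2 value of 0.75 to 1.26 with 1 library left out, and Mmp9 fell to 0.25 without TAE replicate 1. Depth limits Atp6v0d2, Dcstamp, Calcr and Tnfsf11 above all.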
